A study of Homo sapiens with 9 samples.

Results

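The expression of 10 receptor tyrosine kinase genes was followed in A549 cells carrying the intergenic fusion *LOC388942-ALK* (*LA*), in A549 cells without it and in *LA* cells after editing of *FOS*. The genes were *MET*, *MST1R*, *AXL*, *MERTK*, *TYRO3*, *FGFR1*, *FGFR2*, *FGFR3*, *FGFR4* and *DDR1*. They were chosen by name, as receptors outside the ALK and EGFR families that can signal beside a driver kinase, and all 10 were found among the 26364 gene names of the count table.

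A549 is a human lung adenocarcinoma line. The control group comprised 2 libraries of A549 cells labelled wild type. The *LA* group comprised 2 libraries of A549 cells carrying guides against *LOC388942* and *ALK*. Both of these guides were also present in the 3 libraries of the sgScr group, which had a scramble guide in addition, and in the 2 libraries of the sg*FOS* group, which had a guide against *FOS* in addition. Per the methods, the *LA* cells came from A549-Cas9 cells, were infected with lentiviral guides and were expanded from single cells, so that an *LA* strain is a clone. The sources do not say whether the replicates were separate clones or cultures, nor which *FOS* guide the sg*FOS* libraries carried, and the p-values therefore measure only the spread between these libraries, which may be technical. The control cells are not described as single-cell derived, so that the fusion, the clone and the guides cannot be told apart in *LA* against A549. A difference in how or when the *LA* and A549 libraries and the *FOS* knockout libraries were made likewise cannot be told apart from the groups.

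Receptor tyrosine kinases span the cell membrane, and binding of a ligand brings receptors together so that their intracellular kinase domains phosphorylate each other and recruit adaptors of the RAS-MAPK and PI3K pathways. In lung adenocarcinoma, raised signalling by MET, AXL or the FGF receptors is a known route by which cells continue to grow while the driver kinase is inhibited, which is called bypass signalling. An mRNA level reports neither receptor protein nor phosphorylation, and no drug treatment is named for these libraries.

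The counts of a library summed to between 14507228 and 20456341. Levels are given as counts scaled to the library size (CPM) with TMM over all 9 libraries, and changes as log2 fold changes from edgeR's quasi-likelihood test with Benjamini-Hochberg adjustment over all genes tested. *FOS* stood at 10.8 and 9.15 CPM in the A549 libraries, at 335 and 92.8 CPM in the *LA* libraries, at 200, 196 and 203 CPM in the sgScr libraries, and at 68.4 and 74.1 CPM in the sg*FOS* libraries, so that its level followed the labels. *ALK* had no count in either A549 library, 2 and 15 counts in the *LA* libraries, 4, 1 and 3 counts in the sgScr libraries, and 2 and 0 counts in the sg*FOS* libraries, so that at this depth it did not tell sgFOS replicate 2 from A549. Replicate libraries differed by far more than sampling noise in the first 2 groups, where a chi-square test of their counts gave 125 per degree of freedom for A549 and 58.1 for *LA*, against 1.74 to 2.65 in the sgScr and sg*FOS* groups. Fold changes rose with transcript length in *LA* against A549 and in sgScr against A549 (Spearman's rho = 0.518 and 0.537 over genes, which are not independent), and the difference between the A549 libraries also rose with it (rho = 0.30). A second fit corrected each library for length and GC content, and its value is given where it changes a call of the 10 genes. A fit that left 1 library in a group took its spread from the other group. Calls from such a fit do not measure the spread of the group left with 1 library. All 5 epithelial markers (*KRT8*, *KRT18*, *KRT19*, *EPCAM*, *CDH1*) were detected in every group, with sums from 10371 to 17818 CPM in A549 and from 4701 to 10375 CPM in the other groups. *PTPRC* and *CD3E*, which leukocytes and T cells express, were at 0 in all 9 libraries, the leukocyte list summed to between 8.12 and 42.6 CPM, and endothelial markers summed to at most 1.06 CPM. In bulk RNA, fewer cells with a transcript and less of it per cell cannot be told apart.

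By group mean, *AXL* and *MET* were the most abundant of the 10 genes in every group when the level was set per kilobase of the gene's merged exons (RPKM). In A549 cells *AXL* had a mean of 31.1 RPKM and *MET* of 24.5 RPKM, and the ranges of these genes overlapped. The *MET* range there (17.4 to 31.5 RPKM) also overlapped that of *FGFR4* (12.4 to 21.2 RPKM). In *LA* cells *MET* stood first with 55.8 RPKM and *AXL* second with 44.6 RPKM, again with overlapping ranges. *FGFR4* came next in both of these groups, with 16.8 and 18.0 RPKM, whereas *DDR1* came next after *AXL* and *MET* in sgScr cells (13.5 RPKM) and in sg*FOS* cells (15.5 RPKM). *FGFR1* and *MST1R* were intermediate, between 4.81 and 8.94 RPKM in the group means. *TYRO3*, *FGFR3* and *MERTK* lay between 1.10 and 2.80 RPKM, and *FGFR2* was the lowest in every group, with 0.0994 RPKM in A549 cells and less in the other groups. The order depends on the length used. Per kilobase of the longest transcript *FGFR4* (26.2 RPKM) stood beside *MET* (25.7 RPKM) in A549 cells. Likewise, *FGFR1* has merged exons of 17201 bases and a longest transcript of 6216 bases, and per kilobase of the latter it reached 20.5 RPKM in A549 cells and 23.0 RPKM in sgScr cells.

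**Figure D1:**
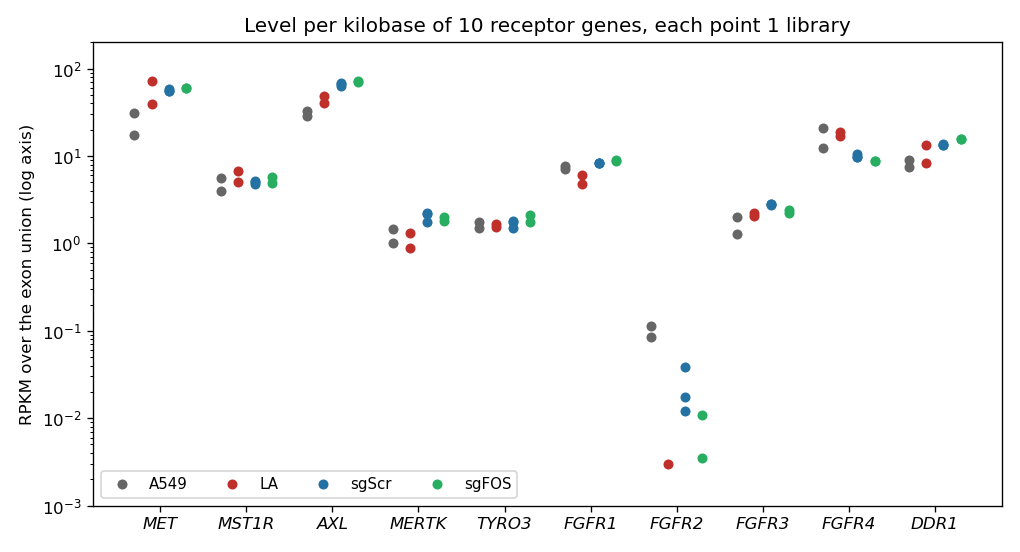
Level of each of the 10 receptor genes in RPKM over the merged exons, on a log axis, with 1 point per library coloured by group. *AXL* and *MET* have the highest group means in all groups, although *FGFR4* (21.2 RPKM) lies above *MET* (17.4 RPKM) in A549 replicate 1. *FGFR2* lies at the bottom, and its value in LA replicate 1, at 0, cannot be drawn on a log axis.

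*MET*, the receptor of hepatocyte growth factor, lies on chromosome 7 (GRCh37, chr7:116312250-116438431, plus strand). Its first transcription start is preceded by a GC-rich stretch, shown because *MET* had the highest counts of the 10 genes in *LA* cells. It is the RefSeq promoter window from -250 to -51 of the start (chr7:116312000-116312199, plus strand), and capitals mark matches to GGGCGG, the GC box, searched on both strands:
MET: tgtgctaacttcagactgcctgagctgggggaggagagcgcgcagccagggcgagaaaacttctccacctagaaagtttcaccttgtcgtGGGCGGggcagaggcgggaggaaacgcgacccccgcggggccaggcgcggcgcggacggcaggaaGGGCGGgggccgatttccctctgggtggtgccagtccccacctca
*MET* stood at 126 and 228 CPM in the A549 libraries and at 518 and 288 CPM in the *LA* libraries. It stood at 398, 401 and 421 CPM in the sgScr libraries and at 438 and 430 CPM in the sg*FOS* libraries. Every library with the fusion was above both A549 libraries, but the *LA* libraries were further from each other than LA replicate 2 was from A549 replicate 2. The log2 fold change in *LA* against A549 was 1.16 (SE 0.44) and did not pass (adjusted *p* = 0.0659, edgeR), although DESeq2 put it past the threshold (adjusted *p* = 0.0463). Without A549 replicate 2 it was 1.60, without LA replicate 1 it was 0.64, and with the length and GC correction it was 0.45 (adjusted *p* = 0.378, edgeR). In sgScr against A549 *MET* rose by 1.21 (SE 0.28, adjusted *p* = 0.02, edgeR), and by 0.53 with the correction (adjusted *p* = 0.0307). Between sgScr and *LA* cells the log2 difference was -0.01 (SE 0.23, adjusted *p* = 0.986, edgeR), with overlapping ranges. It was -0.37 without LA replicate 2 and 0.49 without LA replicate 1. *MET* rose by 0.10 in sg*FOS* against sgScr (SE 0.04, adjusted *p* = 0.0366, edgeR), and this call was lost with DESeq2 (adjusted *p* = 0.0605), with the correction (0.11, adjusted *p* = 0.0563) and without sgFOS replicate 1, sgFOS replicate 2, sgScr replicate 1 or sgScr replicate 2 (adjusted *p* from 0.111 to 0.259).

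*MST1R*, the receptor of macrophage-stimulating protein and the closest relative of *MET*, lies on chromosome 3 (chr3:49924435-49941306, minus strand). It stood at 29.6 and 21.0 CPM in A549, 26.5 and 35.8 CPM in *LA*, 25.0, 27.1 and 26.3 CPM in sgScr, and 25.5 and 30.0 CPM in sg*FOS* cells. All neighbouring groups overlapped. None of the 4 comparisons passed the test, with log2 fold changes from -0.28 (sgScr against *LA*, SE 0.15) to 0.28 (*LA* against A549, SE 0.42) in edgeR's fits. The value was 0.32 in sgScr against A549 without A549 replicate 1, and -0.46 in sgScr against *LA* without LA replicate 1. Its exons overlap antisense RNA genes that the table does not list, and the strand setting of the counting is not given in the sources used here.

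**Figure D2:**
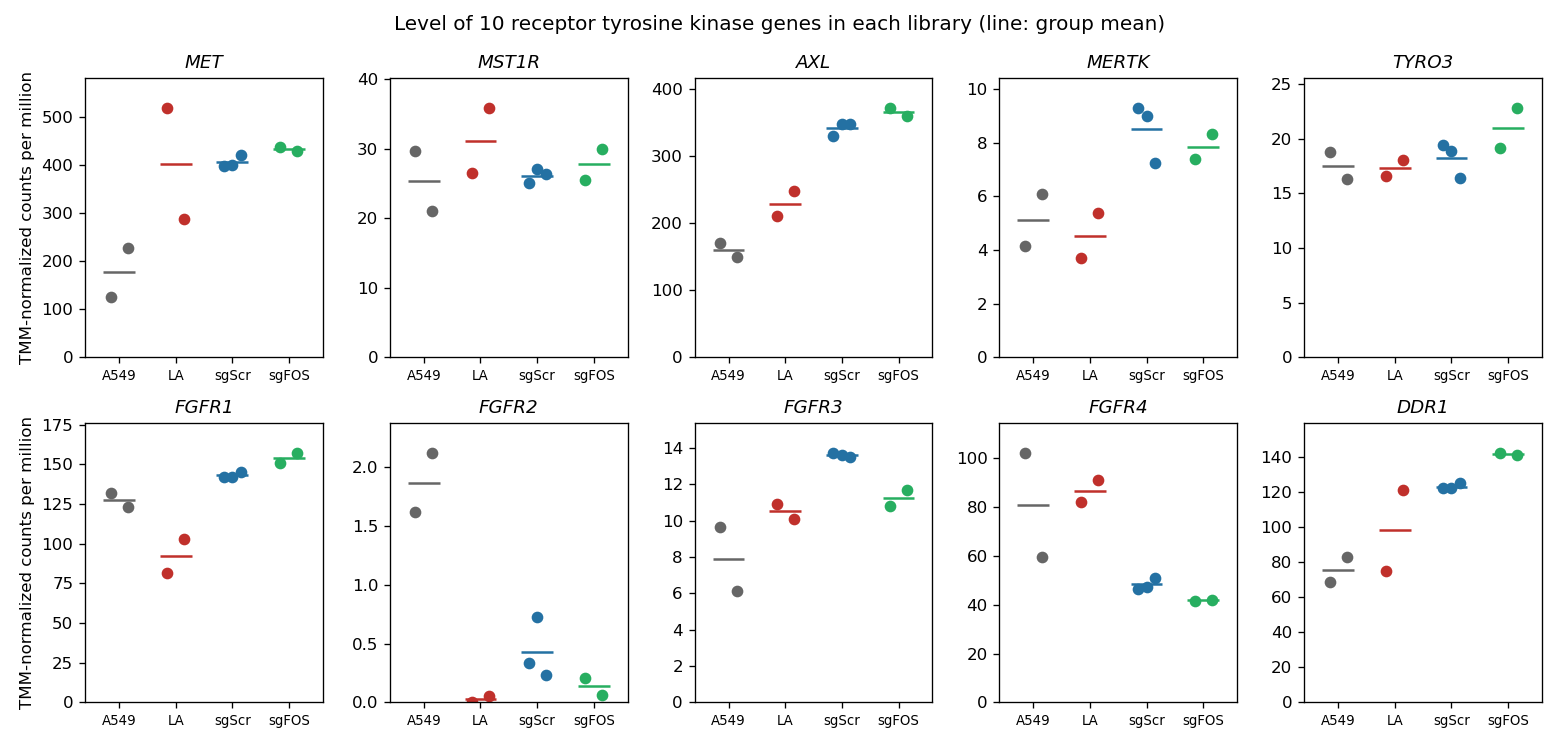
Level of the 10 receptor genes in each of the 9 libraries in CPM after TMM scaling, with a panel and a linear axis from 0 for each gene, a point per library and a line at the group mean. *AXL* steps up from A549 (149 and 170 CPM) through *LA* (210 and 248 CPM) to sgScr and sg*FOS* cells, while *FGFR4* lies lower in sgScr and sg*FOS* cells than in the other groups.

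*AXL* led the TAM receptors, which bind GAS6 and protein S and take part in clearance of dying cells and in survival signalling. The gene lies on chromosome 19 (chr19:41725128-41767671, plus strand), and its exons overlap an antisense RNA gene that the table does not list. It stood at 170 and 149 CPM in A549, 210 and 248 CPM in *LA*, 329, 348 and 347 CPM in sgScr, and 371 and 359 CPM in sg*FOS* cells. The ranges of all 4 groups were apart. *AXL* rose in sgScr against A549 by a log2 fold change of 1.11 (SE 0.14, adjusted *p* = 0.00608, edgeR) and in sgScr against *LA* by 0.56 (SE 0.10, adjusted *p* = 0.0168), and both calls held with the length and GC correction (0.94 and 0.63, adjusted *p* = 0.00233 and 0.00423). Its log2 fold change in *LA* against A549 was 0.50 (SE 0.40) and did not pass (adjusted *p* = 0.393, edgeR). Its rise in sg*FOS* against sgScr was 0.10 (SE 0.04, adjusted *p* = 0.0356, edgeR), and with the correction the value was 0.03 (adjusted *p* = 0.642). Without sgFOS replicate 1, sgFOS replicate 2 or sgScr replicate 1 this small difference also missed the threshold (adjusted *p* = 0.309, 0.0809 and 0.181).

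*MERTK*, the TAM receptor best known from macrophages and the retinal pigment epithelium, lies on chromosome 2 (chr2:112656184-112787138, plus strand). It stood at 4.14 and 6.08 CPM in A549, 3.69 and 5.37 CPM in *LA*, 9.28, 8.99 and 7.24 CPM in sgScr, and 7.39 and 8.32 CPM in sg*FOS* cells. The sgScr and sg*FOS* libraries were all above the A549 and *LA* libraries. *MERTK* rose in sgScr against *LA* by 0.89 (SE 0.23, adjusted *p* = 0.0419, edgeR). The log2 fold change in sgScr against A549 was 0.74 (SE 0.26, adjusted *p* = 0.0604, edgeR). It was 0.49 without A549 replicate 1 and 1.06 without A549 replicate 2. In *LA* against A549 and in sg*FOS* against sgScr the log2 fold changes were -0.21 (SE 0.56) and -0.12 (SE 0.14), and neither passed.

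*TYRO3*, the third TAM receptor, is most abundant in the nervous system. It lies on chromosome 15 (chr15:41849873-41875787, plus strand), and a promoter window inside this span holds a match to TGANTCA. This pattern was searched as the motif of AP-1, the complex of FOS and JUN proteins, with any base allowed at N. The match here, TGAATCA, has A at N. The stretch from -250 to -51 of that start (chr15:41851160-41851359, plus strand) is shown for this match, which is in capitals, while matches to the GC box are left in lower case:
TYRO3: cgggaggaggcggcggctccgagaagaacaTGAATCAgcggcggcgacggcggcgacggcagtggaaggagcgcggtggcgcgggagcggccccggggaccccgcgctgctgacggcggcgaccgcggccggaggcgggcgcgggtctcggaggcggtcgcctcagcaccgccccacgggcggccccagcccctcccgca
*TYRO3* stood at 18.8 and 16.3 CPM in A549, 16.6 and 18.1 CPM in *LA*, 19.4, 18.9 and 16.4 CPM in sgScr, and 19.2 and 22.8 CPM in sg*FOS* cells. The ranges of neighbouring groups overlapped throughout. Its log2 fold change in sg*FOS* against sgScr was 0.21 (SE 0.09, adjusted *p* = 0.118, edgeR), and in the other 3 comparisons it lay between -0.04 and 0.06. With the length and GC correction *TYRO3* fell by 0.65 in sgScr against A549 (adjusted *p* = 0.0123, edgeR), against 0.06 without it. The pseudogene *TYRO3P*, whose reads may be shared with the gene, had at most 0.369 CPM in any library.

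*FGFR2*, an FGF receptor whose splice forms differ between epithelium and mesenchyme, lies on chromosome 10 (chr10:123237846-123357972, minus strand). It was low in all libraries and lowest in cells with the fusion. The stretch from -250 to -51 of its first start (chr10:123358009-123358208, minus strand) is shown because no other member differed from A549 by so large a ratio, and capitals mark a GC box:
FGFR2: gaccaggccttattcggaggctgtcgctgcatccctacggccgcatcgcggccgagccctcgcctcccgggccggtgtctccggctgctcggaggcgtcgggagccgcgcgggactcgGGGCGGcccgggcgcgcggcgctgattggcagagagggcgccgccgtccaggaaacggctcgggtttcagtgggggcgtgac
*FGFR2* had 25 and 36 counts in the A549 libraries, 0 and 1 counts in the *LA* libraries, 7, 15 and 4 counts in the sgScr libraries, and 3 and 1 counts in the sg*FOS* libraries. The A549 libraries were above all others on the CPM scale. The ranges of the other groups were also apart, but their nearest libraries had almost equal counts. LA replicate 2 and sgFOS replicate 2 each had 1 count (0.0559 and 0.0666 CPM). In sgScr replicate 3 there were 4 counts (0.23 CPM), and in sgFOS replicate 1 there were 3 (0.203 CPM). Over the pooled counts, the rate in A549 was 64.3 times that in *LA* (exact 95% interval 11.1 to 2581, counting error only) and 4.27 times that in sgScr (2.66 to 7.04). The rate in sgScr was 15.1 times that in *LA* (2.47 to 617) and 3.28 times that in sg*FOS* (1.14 to 12.9). *FGFR2* fell in *LA* against A549 (adjusted *p* = 0.00259, edgeR) and in sgScr against A549 (adjusted *p* = 0.0226), where it passed the expression filter only through its level in A549. The first call was lost without LA replicate 1 or LA replicate 2 (adjusted *p* = 0.086 and 0.0517). The fitted log2 fold change in sgScr against A549 was -2.08. In *LA* against A549 it was -5.71, a value that depends on the prior count added to such low counts. In the other 2 comparisons the gene did not pass the filter and was not tested.

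*FGFR3*, which is known for activating mutations in bladder cancer, lies on chromosome 4 (chr4:1795020-1810599, plus strand). It stood at 9.63 and 6.14 CPM in A549, 10.9 and 10.1 CPM in *LA*, 13.7, 13.6 and 13.5 CPM in sgScr, and 10.8 and 11.7 CPM in sg*FOS* cells. All libraries with the fusion were above both A549 libraries, and sgScr was the highest. *FGFR3* rose in sgScr against A549 by 0.80 (SE 0.22, adjusted *p* = 0.034, edgeR). The log2 fold change in sg*FOS* against sgScr was -0.27 (SE 0.11, adjusted *p* = 0.0807, edgeR), and with the length and GC correction it fell by 0.38 (adjusted *p* = 0.0108). Neither *LA* against A549 (0.39, SE 0.49) nor sgScr against *LA* (0.35, SE 0.12, adjusted *p* = 0.0862) passed in edgeR. The latter value was 0.43 without LA replicate 1.

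*FGFR1*, a receptor of fibroblast growth factors that is amplified in some lung squamous carcinomas, lies on chromosome 8 (chr8:38257733-38326352, minus strand). It stood at 132 and 123 CPM in A549, 81.8 and 103 CPM in *LA*, 142, 142 and 145 CPM in sgScr, and 151 and 157 CPM in sg*FOS* cells. The ranges of the 4 groups were apart, with *LA* lowest. Its log2 fold change in *LA* against A549 was -0.49 (SE 0.39, adjusted *p* = 0.394, edgeR), and with the length and GC correction *FGFR1* fell by 1.02 (adjusted *p* = 0.027). It rose in sgScr against *LA* by 0.61 (SE 0.12, adjusted *p* = 0.0195, edgeR) and by 0.71 with the correction (adjusted *p* = 0.00294). The log2 fold change in sgScr against A549 was 0.18 (SE 0.13, adjusted *p* = 0.305, edgeR), and with the correction the gene fell by 0.31 (adjusted *p* = 0.0283). Leaving out A549 replicate 1 gave 0.22 and leaving out A549 replicate 2 gave 0.12, both without the correction. Its rise in sg*FOS* against sgScr was 0.11 (SE 0.04, adjusted *p* = 0.0384, edgeR), a call lost with the correction (0.06, adjusted *p* = 0.4) and without sgFOS replicate 1, sgFOS replicate 2, sgScr replicate 1 or sgScr replicate 2 (adjusted *p* from 0.074 to 0.348). *FGFR1* shares exonic sequence with *LETM2* on the other strand, which had group means from 3.30 to 4.55 CPM.

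*FGFR4*, the main receptor of FGF19 in liver, lies on chromosome 5 (chr5:176513906-176525145, plus strand). It stood at 102 and 59.7 CPM in A549, 81.9 and 91.2 CPM in *LA*, 46.5, 47.4 and 51.0 CPM in sgScr, and 41.7 and 41.9 CPM in sg*FOS* cells. The *LA* libraries lay within the range of the A549 libraries, and sgScr and sg*FOS* lay below both. *FGFR4* fell by 0.86 in sgScr against *LA* (SE 0.09, adjusted *p* = 0.00404, edgeR), a call that held in all 15 settings tried, with adjusted *p* up to 0.0459. It fell by 0.20 in sg*FOS* against sgScr (SE 0.06, adjusted *p* = 0.0128, edgeR) and by 0.30 with the length and GC correction (adjusted *p* = 0.000236). This call was lost with DESeq2 (adjusted *p* = 0.093) and without sgFOS replicate 1 or sgFOS replicate 2 (adjusted *p* = 0.0893 and 0.0767). *FGFR4* fell by 0.73 in sgScr against A549 (SE 0.23, adjusted *p* = 0.0479, edgeR), and with the correction the value was -0.16 (adjusted *p* = 0.223). Its log2 fold change in *LA* against A549 was 0.08 (SE 0.40), and -0.33 without A549 replicate 2.

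*DDR1*, a receptor that binds collagen instead of a soluble growth factor, lies on chromosome 6 (chr6:30844198-30867933, plus strand). The promoter window of 1 of its alternative starts holds an AP-1 match, in capitals in the stretch from -62 to -33 of that start (chr6:30856403-30856432, plus strand), which lies within the gene's span and is shown for this match:
DDR1: tgctgtcagctaTGACTCAgtcccctgatt
*DDR1* stood at 68.6 and 82.7 CPM in A549, 75.1 and 121 CPM in *LA*, 122, 122 and 125 CPM in sgScr, and 142 and 141 CPM in sg*FOS* cells. The A549 and *LA* ranges overlapped, and the sgScr and sg*FOS* ranges were apart. *DDR1* rose by 0.21 in sg*FOS* against sgScr (SE 0.04, adjusted *p* = 0.000102, edgeR), the smallest adjusted *p* of the 10 genes in this comparison, and the value was 0.10 with the length and GC correction (adjusted *p* = 0.103). It also rose in sgScr against A549, by 0.71 (SE 0.16, adjusted *p* = 0.0175, edgeR) and by 0.88 with the correction (adjusted *p* = 0.0324). The log2 fold change in *LA* against A549 was 0.35 (SE 0.40, adjusted *p* = 0.578, edgeR). The value in sgScr against *LA* was 0.30 (SE 0.20, adjusted *p* = 0.3, edgeR), and the gene passed with the correction (0.54, adjusted *p* = 0.0118). The difference was 0.69 without LA replicate 2 and 0.01 without LA replicate 1.

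The promoter windows of 9 members were searched, 23 windows in all, each reaching from 250 bases before to 50 bases after a RefSeq start and placed on GRCh37 by exact match. The AP-1 motif TGANTCA was present in 2 of the 23, those of *TYRO3* and *DDR1* shown above, and in 7.71% of 35116 windows of this length over all genes. The related site TGACGTCA was present in none of the 23 and in 1.85% of all windows. The GC box GGGCGG was present in 13 of the 23 and in 44.95% of all windows. Motifs were searched on both strands. A match describes the letters of the window only, and binding was not measured.

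*LA* against A549 asks what the fusion strain changed. *FGFR2* was the only member called in edgeR's fit, and it passed the expression filter only through its level in A549, so that nothing is read from its direction. Its call was lost without LA replicate 1 or LA replicate 2. Of the 10 members, 0 were called higher, where 9.57% of the 14425 genes tested were, and 1 was called lower, where 9.94% were. At an unadjusted *p* under 0.05 in edgeR *MET* was the only other member to pass, and DESeq2 called it higher. The median log2 fold change of the 10 members was 0.18, against 0.04 for all genes. With edgeR's library sizes alone in place of TMM, 1601 genes were called higher and 682 lower over the whole table, against 1380 and 1434. The biological coefficient of variation was 0.329.

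In sg*FOS* against sgScr, which asks what editing of *FOS* changed in *LA* cells, *MET*, *AXL*, *FGFR1* and *DDR1* rose and *FGFR4* fell. These were 4 of the 9 members tested that were called higher, where 12.2% of 14196 genes were, and 1 that was called lower, where 10.5% were. The changes were small: the called members lay between -0.20 and 0.21 on the log2 scale, and the biological coefficient of variation was 0.0296. The median of the 9 members was 0.10, against 0 for all genes, and 0.03 with the length and GC correction. With that correction no member was called higher and *FGFR3* and *FGFR4* were called lower, and DESeq2 called *DDR1* alone. The 4 called higher became 1 without sgFOS replicate 1, sgFOS replicate 2 or sgScr replicate 1, and 2 without sgScr replicate 2.

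**Figure D3:**
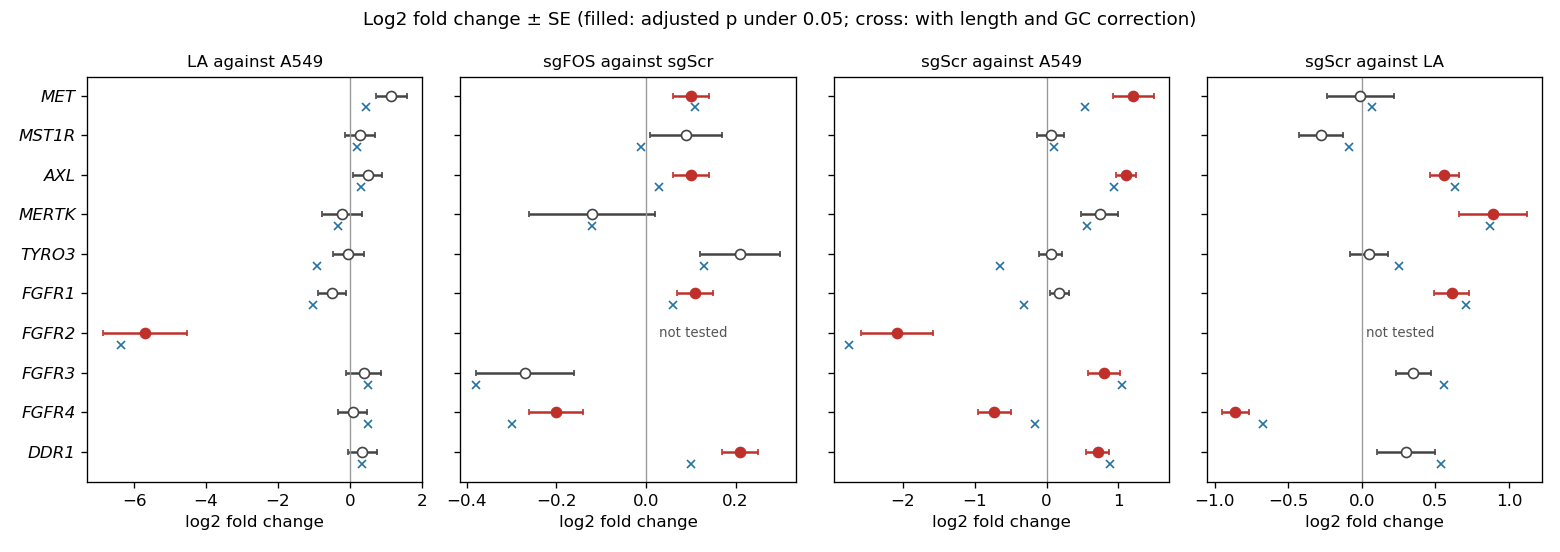
Log2 fold change of each receptor gene with its standard error in the 4 comparisons, from edgeR, with an axis of its own for each panel. Filled points have an adjusted *p* under 0.05, crosses give the value with the length and GC correction, and *FGFR2* was not tested in 2 panels. The sg*FOS* panel spans less than 1 log2 unit, while *FGFR2* in the *LA* panel lies at -5.71.

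In sgScr against A549, *MET*, *AXL*, *FGFR3* and *DDR1* rose and *FGFR2* and *FGFR4* fell. These were 4 of the 10 members called higher, where 19.8% of 14482 genes were, and 2 called lower, where 21.7% were. *FGFR2* passed the expression filter only through its level in A549, so that nothing is read from its direction. With the length and GC correction 4 members were called higher and 3 lower, and *FGFR4* was not among them (-0.16, adjusted *p* = 0.223, edgeR). The median of the members was 0.44, against 0.02 for all genes. All 6 calls were lost when any single sgScr library was left out, and 7 members were called higher without A549 replicate 1 and 6 without A549 replicate 2. This comparison shares its control libraries with *LA* against A549 and its sgScr libraries with sg*FOS* against sgScr.

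In sgScr against *LA*, where both groups carry the fusion, *AXL*, *MERTK* and *FGFR1* rose and *FGFR4* fell. These were 3 of the 9 members tested that were called higher, where 10.6% of 14521 genes were, and 1 called lower, where 12.3% were. The median of the members was 0.30, against -0.02 for all genes. The *AXL*, *MERTK* and *FGFR1* calls were lost when any single sgScr library was left out, and the *FGFR4* call was not. Without LA replicate 1 and without LA replicate 2, 6 and 5 members were called higher. The scramble guide, a possible difference of clone and the library series cannot be told apart here.

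Summed over the 10 genes, the level was 663 and 694 CPM in A549, 1024 and 922 CPM in *LA*, 1105, 1129 and 1153 CPM in sgScr, and 1206 and 1202 CPM in sg*FOS* cells. Every library with the fusion was above both A549 libraries. The share of *MET* was 19.0% and 32.8% in the A549 libraries and 50.6% and 31.3% in the *LA* libraries, so that these groups overlapped. In the sgScr and sg*FOS* libraries it lay between 35.5% and 36.5%.

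Genes that act around the receptors were taken from lists of ligands, coreceptors and ligand-processing proteases, adaptors, and negative regulators. Of the 22 ligands few passed the expression filter. In *LA* against A549, 2 of 6 ligands tested were called higher and none lower, where 9.57% and 9.94% of all genes were, with a median log2 fold change of 0.95 against 0.04 for all genes. *FGF5*, called higher, had no count in A549 and passed the expression filter only through *LA*. Without 1 library the ligands called higher were between 0 and 3. *FGF2*, a ligand of FGF receptors, stood at 27.7 and 37.5 CPM in A549 and at 118 and 107 CPM in *LA* cells and rose by 1.76 (SE 0.41, adjusted *p* = 0.00485, edgeR), and by 1.08 with the length and GC correction (adjusted *p* = 0.0253). *FGF2* stood at 73.8, 75.9 and 65.5 CPM in sgScr and at 99.8 and 94.5 CPM in sg*FOS* cells, and the groups did not overlap. It rose by 0.44 in sg*FOS* against sgScr (SE 0.05, adjusted *p* = 1.47e-08, edgeR) and fell by 0.67 in sgScr against *LA* (SE 0.10, adjusted *p* = 0.00988). *GAS6*, the ligand of the TAM receptors, stood at 10.1, 8.90 and 9.19 CPM in sgScr and at 6.78 and 7.46 CPM in sg*FOS* cells. It fell by 0.40 (SE 0.14, adjusted *p* = 0.033, edgeR). *MST1*, which encodes the ligand of MST1R, fell by 2.28 in sgScr against *LA* (SE 0.52, adjusted *p* = 0.0286, edgeR), but the *LA* libraries differed from each other, with 3.13 and 10.2 CPM.

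Among the 13 coreceptors and proteases tested, 2 rose and none fell in *LA* against A549, where 9.57% and 9.94% of all genes did, and 8 rose and 1 fell in sgScr against A549, where 19.8% and 21.7% did. The medians were 0.67 and 0.55, against 0.04 and 0.02 for all genes, and 0.36 and 0.45 with the correction. *KLB*, called higher in both comparisons, had a mean of 0.395 CPM in A549 and passed the expression filter only through the *LA* or sgScr libraries. In *LA* against A549, between 0 and 3 were called higher without 1 library. *ADAM17*, a protease that sheds AXL, MERTK and ligands of the EGF family, stood at 17.1 and 46.0 CPM in A549, 111 and 88.6 CPM in *LA*, and 134, 139 and 131 CPM in sgScr cells. It rose by 1.62 in *LA* against A549 (SE 0.45, adjusted *p* = 0.015, edgeR) and by 2.09 in sgScr against A549 (SE 0.43, adjusted *p* = 0.0143). In sg*FOS* against sgScr 6 of the 13 rose and 2 fell, where 12.2% and 10.5% of all genes did. With the correction their median went from 0.12 to 0. The calls of *FGFRL1*, *GPC1*, *ADAM10* and *ADAM17* were then lost (adjusted *p* = 0.118, 0.976, 0.2 and 0.439, edgeR). *CD44*, whose variant forms act as a coreceptor of MET, rose there from 357, 379 and 379 CPM to 443 and 443 CPM (log2 fold change 0.26, SE 0.04, adjusted *p* = 4.8e-07, edgeR). The heparan sulfate proteoglycan gene *SDC4* rose by 0.30 (SE 0.05, adjusted *p* = 1.98e-05, edgeR). In sgScr against *LA* 3 rose and 2 fell, where 10.6% and 12.3% of all genes did. There *GPC1*, another proteoglycan gene, rose by 0.61 (SE 0.08, adjusted *p* = 0.00703, edgeR).

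All 13 adaptors were tested. In *LA* against A549, 3 rose and none fell, and in sgScr against A549, 9 rose and none fell, where 9.57% and 19.8% of all genes rose. The medians were 0.88 and 0.72 against 0.04 and 0.02 for all genes. *PTPN11*, which encodes the phosphatase SHP2, stood at 81.9 and 143 CPM in A549, 329 and 289 CPM in *LA*, and 308, 313 and 310 CPM in sgScr cells. It rose by 1.43 in *LA* against A549 (SE 0.42, adjusted *p* = 0.0205, edgeR) and by 1.47 in sgScr against A549 (SE 0.27, adjusted *p* = 0.0111). With the length and GC correction its value in *LA* against A549 was 0.64 (adjusted *p* = 0.123), none of the 13 adaptors was called, and their median went from 0.88 to 0.31. In sgScr against A549 the median went from 0.72 to 0.30, and the calls of *SOS1*, *FRS2* and *PLCG1* were lost (adjusted *p* = 0.853, 0.0699 and 0.174, edgeR). *FRS2*, the docking protein of FGF receptors, rose by 1.38 in *LA* against A549 (SE 0.44, adjusted *p* = 0.0312, edgeR), with 0.78 after the correction (adjusted *p* = 0.0916), and fell by 0.47 in sgScr against *LA* (SE 0.09, adjusted *p* = 0.0209). After editing of *FOS*, in sg*FOS* against sgScr, 2 adaptors rose and 1 fell, where 12.2% and 10.5% of all genes did. *FRS2* was at 0.21 (SE 0.07, adjusted *p* = 0.0395, edgeR) and *SOS1*, a RAS exchange factor, at -0.18 (SE 0.05, adjusted *p* = 0.00669). With the correction these calls held, that of *PLCG1* was lost (adjusted *p* = 0.278, edgeR) and *SRC* was called lower (adjusted *p* = 0.00823).

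Of the 8 negative regulators tested, 4 rose in *LA* against A549, 6 rose in sgScr against A549, and none fell in either, where 9.57% and 19.8% of all genes rose. The medians were 1.19 and 1.13, against 0.04 and 0.02 for all genes, and 0.75 and 0.77 with the correction. *CBL*, a ubiquitin ligase that directs MET and other receptors to degradation, stood at 17.2 and 23.0 CPM in A549 and at 68.9 and 57.7 CPM in *LA* cells, and rose by 1.63 (SE 0.42, adjusted *p* = 0.00933, edgeR). With the correction its value was 0.46 (adjusted *p* = 0.237), and 2 of the 8 were called. *PTPRF*, a receptor-type phosphatase, stood at 119 and 87.5 CPM in A549, 322 and 392 CPM in *LA*, and 404, 413 and 422 CPM in sgScr cells. It rose by 1.77 in *LA* against A549 (SE 0.41, adjusted *p* = 0.00522, edgeR), and by 1.14 with the correction (adjusted *p* = 0.0228). For sg*FOS* against sgScr 2 regulators rose and 1 fell, where 12.2% and 10.5% of all genes did. The one that fell was *PTPN2*, a phosphatase gene, at -0.35 (SE 0.08, adjusted *p* = 0.00126, edgeR). With the correction the calls of *PTPRF* and *SH2B3*, which had risen, were lost (adjusted *p* = 0.994 and 0.172, edgeR). *PTPN2* and *CBL* were then called lower (adjusted *p* = 0.00306 and 0.049, edgeR). In sgScr against *LA* none rose, and *CBLB* and *SH2B3* fell, where 10.6% of all genes rose and 12.3% fell. The *CBLB* and *SH2B3* log2 fold changes were -0.89 and -0.56 (adjusted *p* = 0.0292 and 0.0193, edgeR).

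These counts moved when 1 library was left out. In *LA* against A549, 0 adaptors were called higher without LA replicate 1, LA replicate 2 or A549 replicate 1, and 6 without A549 replicate 2. Negative regulators called higher were 0 without LA replicate 1 or LA replicate 2, 3 without A549 replicate 1 and 6 without A549 replicate 2. In sgScr against A549 and in sgScr against *LA*, leaving out any sgScr library left no ligand, coreceptor, protease or adaptor called, and leaving out A549 replicate 1 or A549 replicate 2 gave 11 adaptors called higher. In sg*FOS* against sgScr, the 6 coreceptors and proteases called higher ranged from 3 to 7.

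**Figure D4:**
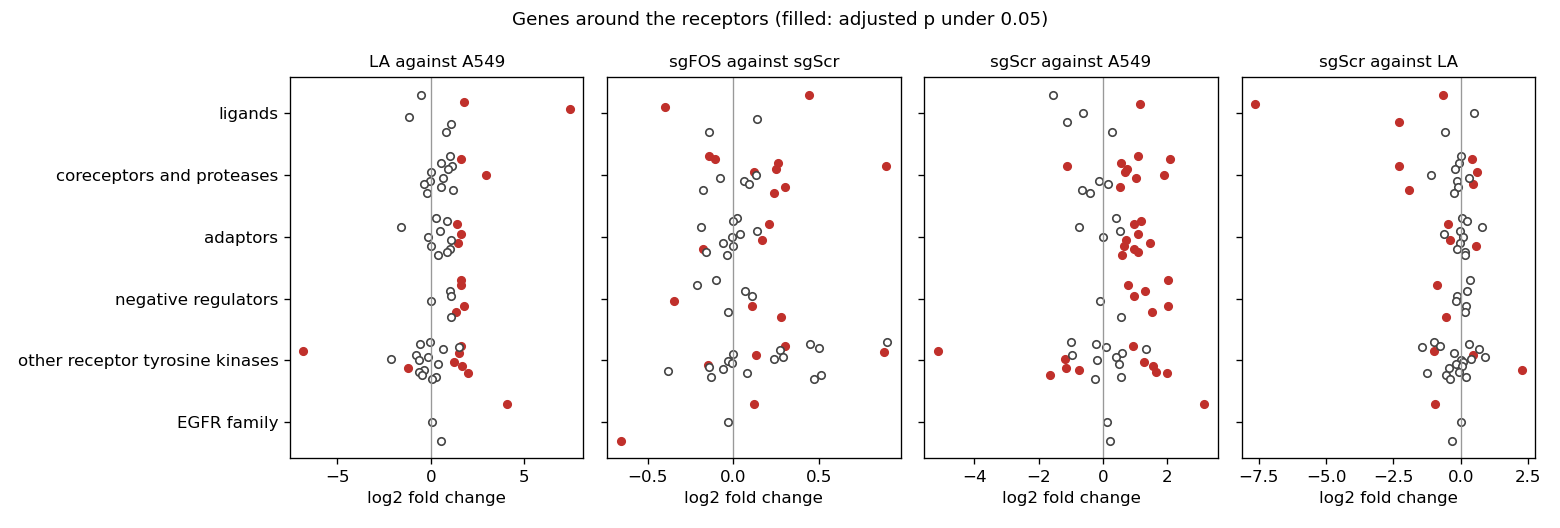
Log2 fold changes from edgeR of the genes around the receptors, by list, in the 4 comparisons, with an axis of its own for each panel and filled points for an adjusted *p* under 0.05. All filled points of adaptors and negative regulators lie above 0 in the 2 comparisons against A549, and those of the sg*FOS* panel lie within 1 log2 unit of 0.

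The remaining receptor tyrosine kinases outside the EGFR family give the frame for the 10 members. Of 43 such genes, 21 were tested in *LA* against A549, of which 5 rose and 2 fell, where 9.57% and 9.94% of all genes did, and 5 rose and 5 fell in sgScr against A549, where 19.8% and 21.7% did. The medians were -0.04 and 0.09, and -0.61 and -0.22 with the correction. *EPHA7*, called lower in *LA* against A549, had no count in *LA* and passed the expression filter only through A549. Without 1 library the calls ranged from 0 to 5 higher and from 0 to 1 lower in *LA* against A549, and from 0 to 10 higher and from 0 to 7 lower in sgScr against A549. *ROR1*, a WNT5A receptor, stood at 7.37 and 18.2 CPM in A549 and at 41.3 and 61.4 CPM in *LA* cells and rose by 1.97 (SE 0.47, adjusted *p* = 0.00614, edgeR). *EPHA2*, an ephrin receptor, stood at 105 and 123 CPM in A549 and at 255 and 463 CPM in *LA* cells and rose by 1.62 (SE 0.43, adjusted *p* = 0.0105, edgeR), with the same value after the correction. In sg*FOS* against sgScr 3 of 20 rose and 1 fell, where 12.2% and 10.5% of all genes did. The ephrin receptor gene *EPHB2* went from 36.8, 40.3 and 41.7 CPM to 73.2 and 72.3 CPM (log2 fold change 0.88, SE 0.06, adjusted *p* = 4.19e-15, edgeR). With the correction the *EPHB4* call was lost (adjusted *p* = 0.882, edgeR). *IGF1R*, *PTK7* and *LMTK3* were then also called lower (adjusted *p* = 0.0248, 0.0122 and 0.00772, edgeR). In sgScr against *LA* 2 of 21 rose and 1 fell, where 10.6% and 12.3% of all genes did. *PTK7*, which encodes a receptor without kinase activity, rose there by 2.26 (SE 0.24, adjusted *p* = 0.00368, edgeR), from 2.09 and 1.62 CPM to 7.62, 9.14 and 10.3 CPM.

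*EGFR*, the first of the EGFR family, stood at 18.6 and 24.0 CPM in A549, 280 and 446 CPM in *LA*, 184, 186 and 196 CPM in sgScr, and 204 and 204 CPM in sg*FOS* cells. It rose by 4.06 in *LA* against A549 (SE 0.46, adjusted *p* = 7.3e-06, edgeR), and by 2.92 with the length and GC correction (adjusted *p* = 0.0034). None of the 10 members rose by as much, while the fitted value of *FGFR2* was -5.71, and the difference between genes was not tested. *ERBB2* lay between 56.6 and 83.5 CPM in all libraries and passed in none of the 4 comparisons, and *ERBB3* fell by 0.66 in sg*FOS* against sgScr (adjusted *p* = 0.000118, edgeR).

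The genes whose pattern over the 9 libraries was most like that of a member were named by the root mean square difference in centred log2 CPM, among 11896 genes. Those nearest to *MET* were *NRIP1* (0.078), *CEP97* (0.088) and *EPT1* (0.089), where *MET* itself varied by 0.601 on the same scale. Those nearest to *AXL* were *AHRR* (0.092), *LRRC8A* (0.095) and *SVIL* (0.097), with 0.476 for *AXL*. Those nearest to *FGFR1* were *SMO* (0.056), *SQSTM1* (0.09) and *POLR3D* (0.092), with 0.285 for *FGFR1*. The 9 points share 4 groups and the spread within them, so that this likeness is a description.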

How the data were processed

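RNA-seq was done in 9 libraries of A549 cells, which GEO's labels place in 4 groups. A further property of these cells that the methods give is not reported here. The counts deposited by the authors are reads per gene without normalization. Per the methods and processing notes, stranded mRNA libraries were sequenced as paired ends and aligned to hg19 with STAR 2.7.10b, and DESeq2 1.26.0 was applied. How reads were counted on genes, and with which strand setting, is not given in the sources used here. Date-like gene names (28) stayed in the library sizes and tests.

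The counts were tested with edgeR 4.0.16 in R 4.3.3 (TMM, filterByExpr, two-sided quasi-likelihood test, Benjamini-Hochberg adjusted *p* under 0.05) on the libraries of each comparison. CPM and RPKM were computed from the same counts with GENCODE exons on GRCh37. Intervals, and limits of 3 counts, cover counting error only, as there were no molecular identifiers. Alternatives were DESeq2 1.42.0, edgeR with DESeq2 size factors, scaling by library size or by upper quartile, no filter, a mean of 50 counts, all 9 libraries in 1 fit, a replicate block, a loess correction (span 0.5) for length and GC content, both together, leaving out each replicate, and the threshold of the methods (unadjusted *p* under 0.05, absolute log2 fold change over 0.5). A crossed block was added after seeing the data. The members and lists were chosen with earlier results of these data known. Named were all members, *FOS*, *ALK*, the EGFR family, genes among the up to 3 called genes per list and comparison with the largest change (mean of at least 50 counts, groups apart), and the 3 genes most like *MET*, *AXL* and *FGFR1*. The fit was tested on simulated data. Plots were made with Python 3.11.15. Promoter windows came from RefSeq (GRCh38.p14) and were placed on GRCh37 by exact match. Length and GC content were known for 98.2% to 98.3% of the genes tested.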

Additional observations from a re-analysis of the deposited data

How the results depend on the processing

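Deviations of same-numbered libraries correlated between -0.248 and 0.042, so that same-numbered libraries did not deviate alike. In *LA* against A549, with 2 libraries in each group, both numbers give the same value, -0.248. With the crossed block 1977 genes were called higher and 1901 lower there, against 1380 and 1434 in the main fit. Whether libraries with unlike numbers share a batch was not tested. Precision is limited by 2 or 3 libraries a group, and by the distance between the replicates of A549 and *LA*. Members called higher in *LA* against A549 were 0 in the main fit and 1 with DESeq2, no filter, a mean of 50 counts, the crossed block or the threshold of the methods, 2 with all 9 libraries, and 0 to 1 without a replicate. Those called lower were 1, and 0 with a mean of 50 counts, 2 with all 9 libraries, with the correction and with the correction and the replicate block, and 0 to 1 without a replicate. With the replicate block alone they were 0 higher and 1 lower. In sg*FOS* against sgScr the 4 higher became 1 with DESeq2, upper quartile scaling or the correction and block, and 0 with all 9 libraries, the correction or the threshold of the methods, and ranged from 1 to 4 without a replicate. The 1 lower became 0 with DESeq2, all 9 libraries, the replicate block or the threshold, 2 with the correction with or without the block, and 0 to 1 without a replicate. In sgScr against A549 the 4 higher became 2 with the replicate block and 0 to 7 without a replicate. The 2 lower became 1 with library size alone, a mean of 50 counts, the replicate block or the correction and block, and 0 to 2 without a replicate. In sgScr against *LA* the 3 higher became 0 with the replicate block and 0 to 6 without a replicate, and the 1 lower became 1 to 2. Where an arm was left with 1 library, it was assumed to vary like the other group. The cause of these moves was not tested.

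Some log2 fold changes turned sign, none of them past the test in the main fit. For *LA* against A549 with library size alone *MERTK* was 0.06 and *TYRO3* 0.25. Without a replicate, *MERTK* ranged from -0.50 to 0.04 (0.01 without LA replicate 1), *TYRO3* from -0.20 to 0.01, *DDR1* from -0.01 to 0.62, *MST1R* from -0.02 to 0.50 and *FGFR4* from -0.33 to 0.46. For sg*FOS* against sgScr *MST1R* was -0.01 with the correction, with or without the block, and ranged from -0.03 to 0.20 without a replicate. For sgScr against A549 *MST1R* and *TYRO3* were 0.00 with upper quartile scaling, and ranged from -0.17 to 0.32 and from -0.03 to 0.16 without a replicate. There *TYRO3* was -0.65 and *FGFR1* -0.31 with the correction, and -0.58 and -0.33 with the correction and block. For sgScr against *LA* *MET*, at -0.01, was 0.01 with DESeq2 or all 9 libraries, 0.02 with no filter, 0.03 with the block, 0.07 with the correction, 0.09 with both, and ranged from -0.37 to 0.49 without a replicate. Over the members, 442 log2 fold changes under an alternative kept their direction and side of the threshold, 75 lost the call, 23 gained it and 28 turned.

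Over all genes, calls in *LA* against A549 (1380 higher, 1434 lower) were 3552 and 3247 with all 9 libraries, 791 and 728 with the replicate block, 2505 and 2472 at the threshold of the methods, 745 higher with the correction, 682 lower with library size alone, and 185 to 2383 and 68 to 2695 without a replicate. In sg*FOS* against sgScr (1731, 1490) they were 992 and 832 with DESeq2, 0 and 0 with all 9 libraries, 530 and 288 at that threshold, and 1022 to 1843 and 894 to 1675 without a replicate. In the fit of all 9 libraries no gene passed, and the number at an unadjusted *p* under 0.05 in edgeR's main fit was 4812. In sgScr against A549 (2872, 3137) they were 1500 and 1864 with the correction and block, 1553 lower with the block, and 3 to 6059 and 0 to 5656 without a replicate. In sgScr against *LA* (1534, 1793) they were 569 and 867 with all 9 libraries, 511 and 719 with the block, 927 and 878 with the correction and block, and 171 to 4938 and 218 to 4988 without a replicate.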

Other observations

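A few genes outside the rule for named genes had low counts and large changes, and were chosen after their values were seen. *FGF5*, a ligand of FGF receptors, had 0 counts in both A549 libraries, against 12 counts in LA replicate 1 and 34 in LA replicate 2. On the CPM scale, the mean of the *LA* libraries was 7.11 times a limit of 3 counts in each A549 library. This ratio includes no error of the *LA* mean. The sgScr libraries, which also carry the fusion guides, had a mean of 0 CPM of *FGF5*, against 1.32 CPM in *LA*. *EPHA7*, an ephrin receptor gene, had 13 and 14 counts in the A549 libraries and 0 in both *LA* libraries. Its A549 mean was 4.73 times a limit of 3 counts in each *LA* library, likewise without an error of the mean. *FGF5* and *EPHA7* passed the expression filter only through the group with counts, so that nothing is read from their direction. *KLB*, a coreceptor for FGF19, had a log2 fold change of 2.93 in *LA* against A549 (SE 0.82, adjusted *p* = 0.0155, edgeR), and of 2.35 with the length and GC correction (adjusted *p* = 0.0631). Its mean was 0.395 CPM in A549 and 3.15 CPM in *LA*, and it passed the expression filter only through *LA*, so that nothing is read from its direction.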
